A study of Mus musculus with 4 samples.

Results

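Histone genes were read by 78 of the 41345 rows of the value table, each row being one feature of the array. They are every row whose platform annotation lists at least 1 symbol beginning with H1f and a digit, H2ac, H2bc, H3c, H4c, H2az, H3f3 or H2ax, whether the row lists 1 symbol or several. Rows listing identical symbols were merged by their mean, which left 46 histone groups among 39476 groups in all. Of these, 37 groups (64 rows) list replication-dependent histones only, 6 groups (6 rows) list variant histones only, and 3 groups (8 rows) list a variant together with a predicted gene (Gm12657, Gm6749 or Gm5577) and were kept apart as mixed. The groups carry 74 histone symbols. Only 32 groups list a single symbol. The others list several, and their values cannot be assigned to 1 of the genes listed.

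The cells were osteoblasts grown from the calvaria of neonatal mice and kept for 21 days in medium with ascorbate and glycerol phosphate. Runx3f/f/Col1a1-cre cultures were compared with wild-type cultures, on 2 arrays each, numbered replicates 1 and 2. Col1a1-cre expresses the Cre recombinase from the promoter of the type I collagen gene, so the floxed Runx3 gene is meant to be lost in collagen-making cells and not in other cells of the culture. The labels give neither strain, sex nor pooling, and do not say whether the wild-type mice carried a floxed or Cre allele. They call the replicates biological without saying that these came from separate animals, so p-values measure only the spread between these arrays.

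The values are taken as log2 and every level and difference below is on that scale, with differences given as mutant-labelled minus wild type. Runx3 itself was not lower on the mutant-labelled arrays (7.94 and 8.06 against 7.45 and 7.87). These values are for RNA of the whole culture, and loss of the floxed part of the gene was not tested. All 9 measured osteoblast markers lay above a background level of 4.71, set from rows for odorant and pheromone receptors, on at least 2 arrays, with values up to 13.57. Within both replicates 4 of the 9 were lower and 1 was higher, where 18.7% and 19.9% of all rows above the background level were, with Ibsp at -1.55, Dmp1 at -1.46 and Phex at -0.83 (limma adjusted p = 0.68, 0.87 and 0.97). The 6 myoblast markers, checked because a tissue tag reads Myoblast, stayed between 5.45 and 8.24. Of the macrophage markers 12 of 12 were lower on the mutant-labelled array within both replicates (18.7% of those rows), and their summed linear signal was 2513 to 2758 on the mutant-labelled arrays against 7673 to 8169 on the wild-type arrays. Within a replicate number the mutant-labelled and wild-type arrays held exactly the same value in 37.8% of all rows for replicate 1 and 45.1% for replicate 2. Among histone rows the shares were 16.7% and 24.4%. The sources used here do not say how these equal values arose, and an equal value is no sign that a gene was unchanged.

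Histones are the proteins around which DNA is wound. An octamer of the core histones H2A, H2B, H3 and H4 forms the nucleosome, and H1 binds the linker DNA between nucleosomes. Replication-dependent histone genes lie in clusters of many intronless copies, are transcribed mainly in S phase to package new DNA, and give mRNAs that end in a conserved stem-loop in place of a poly(A) tail. Variant histones such as H2A.Z, H3.3 and H1.0 are made from separate, mostly polyadenylated genes throughout the cell cycle and are put into chromatin independently of DNA replication, which makes them the main supply in cells that have stopped dividing.

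Replication-dependent groups lay on both sides of 0, from H1f5 to H4c14. Among the 37 replication-dependent groups 18 were higher on the mutant-labelled array within both replicates, where 17.4% of all groups of rows were, and 11 were lower within both, where 15.9% were. Exact ties were less frequent here, with 2 of the 37 equal in both replicates and 5 equal in 1, against 9920 and 12157 of all 39476 groups. Ties count on neither side and so lower both shares over all groups. A difference of at least 1.5-fold in the same direction within both replicates was found for 5 of these 37 groups on the higher side (2.05% of all groups) and for 0 on the lower side (0.887%). At 2-fold there were 3 on the higher side (0.613%) and 0 on the lower side (0.352%). The 3 are not separate genes, being H4c14, H4c1 and an H4 set listing 13 symbols that include both. The mutant-labelled and wild-type values did not overlap in 10 groups that were higher (7.7% of all groups) and 6 that were lower (6.59%). Mean differences ran from -0.79 in H1f5 to 1.90 in H4c14 with a median of 0.04. The 6 variant groups ran from -0.60 to 0 with a median of -0.005, and 0 of them were higher within both replicates, 2 were lower, and 3 were exactly equal in both (25.1% of all groups).

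**Figure D1:**
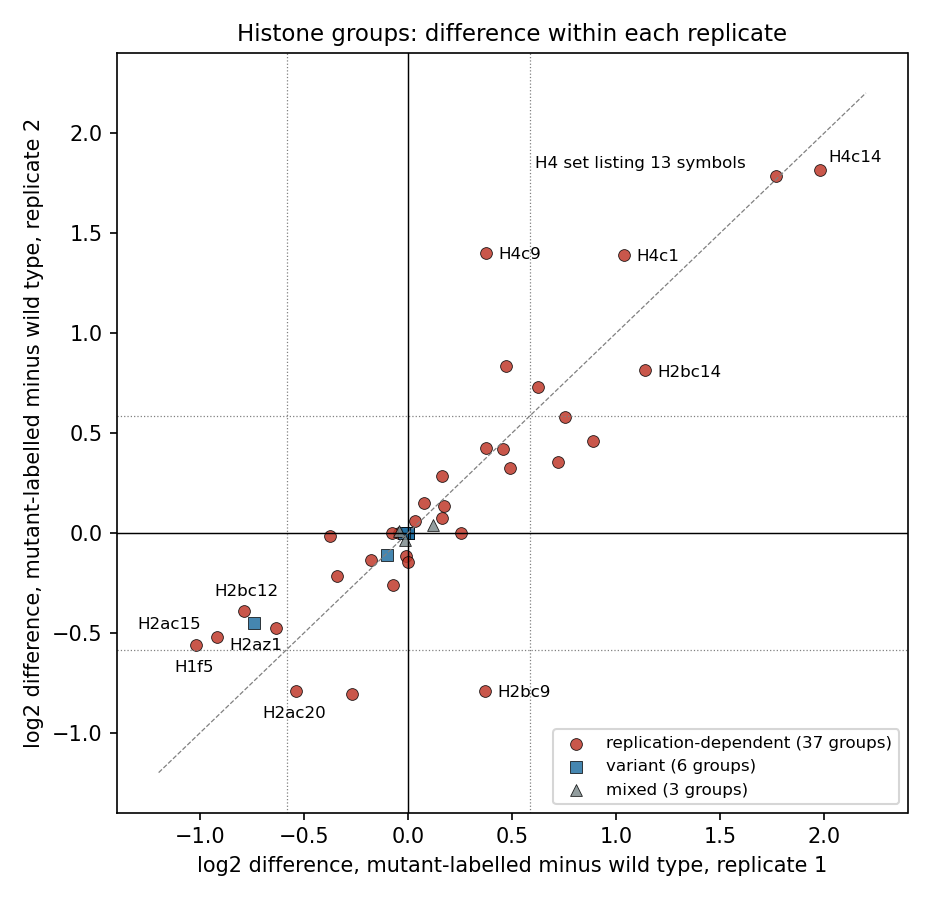
Log2 difference (mutant-labelled minus wild type) of each of the 46 histone groups within replicate 1 (x axis) and replicate 2 (y axis), with dotted lines at 1.5-fold and a dashed line of equality. The 6 variant groups lie at or below 0, and the H4 groups H4c14 and the set listing 13 symbols lie farthest to the upper right.

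Between the medians of the replication-dependent and variant classes the difference was 0.08 within replicate 1 and 0 within replicate 2. It is a median over groups that lie on both sides of 0, with quartiles of -0.17 and 0.54 in the replication-dependent class, and does not show that the classes are alike. Over the mean of both replicates it was 0.05, against 0.31 as a difference of means, and it stayed at 0.05 with the 3 mixed groups counted as variants. It rests on which arrays are used, being 0.25 without mutant-labelled replicate 1 and 0.27 without wild-type replicate 2. Counts by family are given beside the 17.4% of all groups that were higher and the 15.9% that were lower, and no difference between families was tested. Of 9 H4 groups 7 were higher in both replicates and 0 lower (5 of the 7 H4 groups above the background level), of 2 H3 groups both were higher, of 11 H2B groups 5 were higher and 3 lower, and of 9 H2A groups 1 was higher and 7 were lower.

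No single row passed the adjusted threshold. With limma over the 30240 rows above the background level, 0 of 67 histone rows had an adjusted p under 0.05 (0% of all rows), and the smallest was 0.50. On simulated data with as many arrays the same test called no changed row either, so a count of 0 does not show that the rows were alike. At an unadjusted limma p under 0.05 there were 18 histone rows (3.94% of all rows), of which 14 were higher (2.54%) and 4 lower (1.4%), and all 18 were replication-dependent. The 14 include 3 rows that entered the test only because both mutant-labelled values were above the background level, and without them 15 remain, 11 higher and 4 lower. The tested rows as a whole hold 99 such rows, which were not taken out of the shares over all rows, so the 15 and 11 have no matching share. With an intensity trend in the variance 1 histone row passed (0.136% of all rows), a row of the H2B set listing 4 symbols. Of the 46 groups 40 lay above the background level on at least 2 arrays. They were 32 replication-dependent, 5 variant and 3 mixed groups.

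Upstream sequence is shown for the replication-dependent groups with 1 symbol that differed most, so that the elements named below can be seen in place. They are the 250 bases before the annotated start from RefSeq (GRCm38.p6), 5′ to 3′ on the strand of the gene. Capitals mark the letters of the TATA box (TATAAA), the CCAAT box and the octamer (ATTTGCAT) on either strand, at any position. H4c1, H2bc14 and H4c9 are among the 4 of largest difference. H4c14, the largest, is named only. H1f5, the group with the lowest difference, was added after its value was seen.
H4c1 (chr13:23761250-23761499, minus strand): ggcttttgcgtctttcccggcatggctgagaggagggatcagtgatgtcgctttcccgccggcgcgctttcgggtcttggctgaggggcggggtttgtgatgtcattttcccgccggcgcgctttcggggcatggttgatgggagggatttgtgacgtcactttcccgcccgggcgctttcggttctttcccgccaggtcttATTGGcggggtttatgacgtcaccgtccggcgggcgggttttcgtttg
H4c9 (chr13:22041363-22041612, minus strand): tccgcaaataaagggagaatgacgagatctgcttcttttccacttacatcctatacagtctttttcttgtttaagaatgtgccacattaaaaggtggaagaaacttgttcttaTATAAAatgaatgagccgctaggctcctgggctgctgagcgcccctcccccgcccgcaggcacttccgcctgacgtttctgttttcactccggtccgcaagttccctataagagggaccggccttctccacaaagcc
H2bc14 (chr13:21721794-21722043, plus strand): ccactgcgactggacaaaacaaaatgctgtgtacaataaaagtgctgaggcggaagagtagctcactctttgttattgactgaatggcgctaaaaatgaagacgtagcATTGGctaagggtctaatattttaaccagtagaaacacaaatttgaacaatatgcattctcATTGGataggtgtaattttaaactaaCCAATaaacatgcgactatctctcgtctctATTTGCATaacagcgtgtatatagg
H1f5 (chr13:21780626-21780875, minus strand): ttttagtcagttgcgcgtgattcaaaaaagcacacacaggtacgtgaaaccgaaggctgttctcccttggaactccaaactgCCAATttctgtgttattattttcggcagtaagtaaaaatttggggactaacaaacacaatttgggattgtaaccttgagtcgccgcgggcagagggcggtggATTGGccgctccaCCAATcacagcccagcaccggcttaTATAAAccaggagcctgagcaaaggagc

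The CCAAT box was found in 49 of 60 promoters of the replication-dependent symbols listed on the array (81.7%), against 34.5% of 27025 mouse promoters of the same length. It was in all 6 H1, 17 H2A and 15 H2B promoters but in 3 of 12 H4 promoters. The letters TATAAA, counted at any position and not only where a TATA box lies, were in 28 of the 60 (46.7%), against 3504 of all 27025 promoters. The octamer ATTTGCAT, the element bound by Oct factors in H2B promoters, was in 6 of 15 H2B and 6 of 17 H2A promoters (1.61% of all promoters). No motif contains another. Among the 24 replication-dependent groups with 1 symbol and a promoter here, the 13 with TATAAA had a median difference of -0.04 (2 higher and 6 lower within both replicates). The 11 without it had one of 0.12 (6 higher and 2 lower). Of all groups 17.4% were higher and 15.9% lower. The 19 with CCAAT had a median of -0.07 and the 5 without it 0.22. The 5 without CCAAT are all H4 groups, so this contrast cannot be told apart from one between H4 and the other families. Their median is that of H4c2, which lay below the background level on every array. A match describes the letters and not a bound site.

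Histone H4, the partner of H3 in the core tetramer, showed the largest differences. Its genes encode the same protein, and 13 of the symbols (H4c1, H4c2, H4c3, H4c4, H4c6, H4c8, H4c9, H4c11, H4c12, H4c14, H4c17, H4c18 and H4f16) are listed together on 4 rows. The row with the largest difference read 9.18 and 9.89 on the mutant-labelled arrays against 5.35 and 6.48 on the wild-type arrays. Both mutant-labelled values lay above both wild-type values, a 12.3-fold mean difference (log2 3.62, SE 0.52, limma adjusted p = 0.61). The first pair of arrays differed by 3.84 and the second by 3.41. The other 3 rows of the set differed by 1.36, 1.07 and 1.05, all without overlap. Of these, the row at 1.36 read 4.15 and 3.87 in wild type and the row at 1.07 read 4.46 and 4.49, below the background level of 4.71, so their differences are against background and both rows entered the test only through the mutant-labelled arrays. The merged set differed by 1.78.

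H4c14, a copy that lies outside the major cluster, was read by a row of its own at 7.28 and 7.61 on the mutant-labelled arrays and 5.30 and 5.80 on the wild-type arrays. The genotypes did not overlap, and the difference of 1.90 (3.72-fold, SE 0.26, limma adjusted p = 0.60) was close within replicates, at 1.98 and 1.81. H4c1 read 5.28 and 6.62 against 4.25 and 5.23, with differences of 1.04 and 1.39, the first of them against a wild-type value below the background level. The values separate the genotypes narrowly, because the mutant-labelled value of replicate 1 was just above the wild-type value of replicate 2. H4c9 read 7.08 and 8.14 against 6.71 and 6.74. Its difference was 0.37 in replicate 1 and 1.40 in replicate 2, so its size rests on the second replicate.

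Not every H4 row was higher. H4c12 read 12.21 and 12.49 against 12.28 and 12.49, with equal values in replicate 2. A row listing 6 H4 symbols (H4c1, H4c2, H4c8, H4c9, H4c17 and H4c18) differed by 0.11, although H4c1 and H4c9 differed by 1.21 and 0.89 on rows of their own. Rows that list the same gene therefore did not give the same difference. H4c8 and H4c2 were higher in both replicates by means of 0.67 and 0.22, but at most 1 of 4 arrays reached the background level for H4c8 and 0 for H4c2, and H4c17 differed by -0.02.

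Histone H3 was read by rows shared between copies. Those of H3.2 (H3c2, H3c3, H3c4, H3c6, H3c7, H3c13, H3c14 and H3c15) have 8 rows, and the copies of H3.1 (H3c1, H3c8, H3c10 and H3c11) have 4. One H3.2 row read 8.58 and 9.19 on the mutant-labelled arrays against 6.35 and 6.82, a 4.91-fold difference (SE 0.32 on the log2 scale, limma adjusted p = 0.60) that was 2.23 and 2.37 within the replicates. Both mutant-labelled values lay above both wild-type values. The other 7 H3.2 rows lay between -0.05 and 0.62, and the row with the highest level, at 11.51 and 11.46 against 11.51 and 11.55, was equal in replicate 1. Of the H3.1 rows, 1 read 5.61 and 5.18 against 4.02 and 4.09, both wild-type values being below the background level. The row entered the test only through the mutant-labelled arrays, and its difference of 1.34 is against background. The other 3 differed by 0.08 to 0.12.

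**Figure D2:**
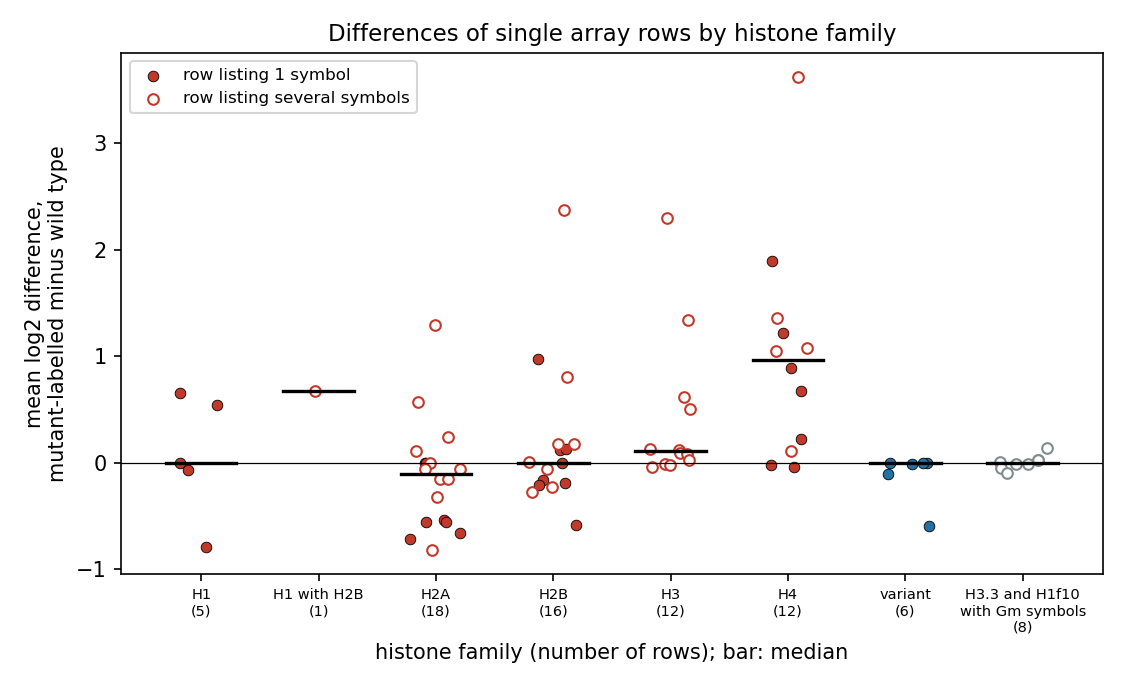
Mean log2 difference (mutant-labelled minus wild type) of each of the 78 histone rows, by family, with filled points for rows listing 1 symbol, open points for rows listing several, and a bar at the median. The H4 rows have a median of 0.97 and the H2A rows one of -0.11, and each core family has 1 row or more far above its median.

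Histone H2B, which pairs with H2A, held both kinds of row. In the set listing H2bc7, H2bc11, H2bc13 and H2bc15, 1 row read 8.84 and 8.85 on the mutant-labelled arrays against 6.56 and 6.39 on the wild-type arrays. The replicates of each genotype lay close together (SD 0.0039 and 0.12), and the difference was 5.17-fold (log2 2.37, SE 0.16, limma adjusted p = 0.50, and 0.041 with the intensity trend). Another row of the same 4 symbols read 12.44 and 12.67 against 12.72 and 12.94, lower by 0.28 in each replicate, and the remaining row differed by -0.06. The merged set was 0.62 and 0.73 higher, but its brightest row alone went the other way, at -0.28.

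H2bc14 read 5.18 and 5.68 against 4.04 and 4.87, higher by 1.14 and 0.81 without overlap; the wild-type value of replicate 1 was below the background level. Of the 2 rows for H2bc4, H2bc6 and H2bc8, 1 read 10.02 and 10.24 against 9.27 and 9.39, higher by 0.75 and 0.85 (SE 0.17, limma adjusted p = 0.89). The second read 12.21 and 12.53 on both genotypes. A row shared by these 3 genes and H1f4 read 9.06 and 9.21 against 8.31 and 8.63, higher by 0.75 and 0.58. In the opposite direction H2bc12 read 8.16 and 8.24 against 8.95 and 8.63, lower by 0.79 and 0.39 without overlap. Both H2bc14 and H2bc12 are also listed in a set of 12 H2B symbols. Its 3 rows differed by -0.23 to 0.18, and the merged set by 0.04. H2bc9 was the group with the widest disagreement between replicates, at 0.37 and -0.79.

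Histone H2A genes were mostly lower. Of 6 groups with 1 H2A symbol 5 were lower within both replicates (15.9% of all groups) and 0 higher (17.4%). The remaining one, H2ac12, lay below the background level on all 4 arrays. H2ac15 read 5.85 and 7.17 on the mutant-labelled arrays against 6.77 and 7.69, lower by 0.92 and 0.52. Replicate 2 read higher than replicate 1 in both genotypes, and the genotypes overlapped. H2ac20 read 4.91 and 4.78, close to the background level, against 5.45 and 5.57, lower by 0.54 and 0.79 without overlap (SE 0.16, limma adjusted p = 0.97). H2ac10 read 10.35 and 10.09 against 10.99 and 10.57, again without overlap, lower by 0.63 and 0.48. Brighter rows shared with other genes differed less. The set listing H2ac18, H2ac19 and H2ac20, at a mean level of 12.05, differed by -0.06. A set listing 12 H2A symbols, H2ac10 and H2ac15 among them, differed by -0.16 at a mean level of 11.56.

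H2ac1, whose product is known from testis, was lower by 0.27 and 0.81. Of the 7 rows listing 10 H2A symbols together (H2ac4, H2ac6, H2ac7, H2ac8, H2ac11, H2ac12, H2ac13, H2ac22, H2ac23 and H2ac24), differences ran from -0.82 to 1.30. The row at 1.30 read 5.86 and 6.84 against 5.05 and 5.06, and the row at -0.82 read 5.35 and 6.21 against 6.22 and 6.99. Rows with identical annotation thus differed in opposite directions, and the merged group stood at 0.15.

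The linker histones differed in both directions. H1f5, which encodes H1.5, read 7.99 and 8.18 on the mutant-labelled arrays against 9.02 and 8.75 on the wild-type arrays. The genotypes did not overlap, and it was lower by 1.02 and 0.56 (mean -0.79, SE 0.19, limma adjusted p = 0.97). H1f3 read 7.62 and 8.01 against 6.90 and 7.66 and was higher by 0.72 and 0.36, with overlap between the genotypes. H1f2, which encodes H1.2, was equal in replicate 1 and lower by 0.15 in replicate 2. H1f6, the linker histone of spermatocytes, read 5.15 and 5.56 against 4.68 and 4.73, higher by 0.47 and 0.84 close to the background level. H1f1 was below that level on every array and equal in both replicates.

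**Figure D3:**
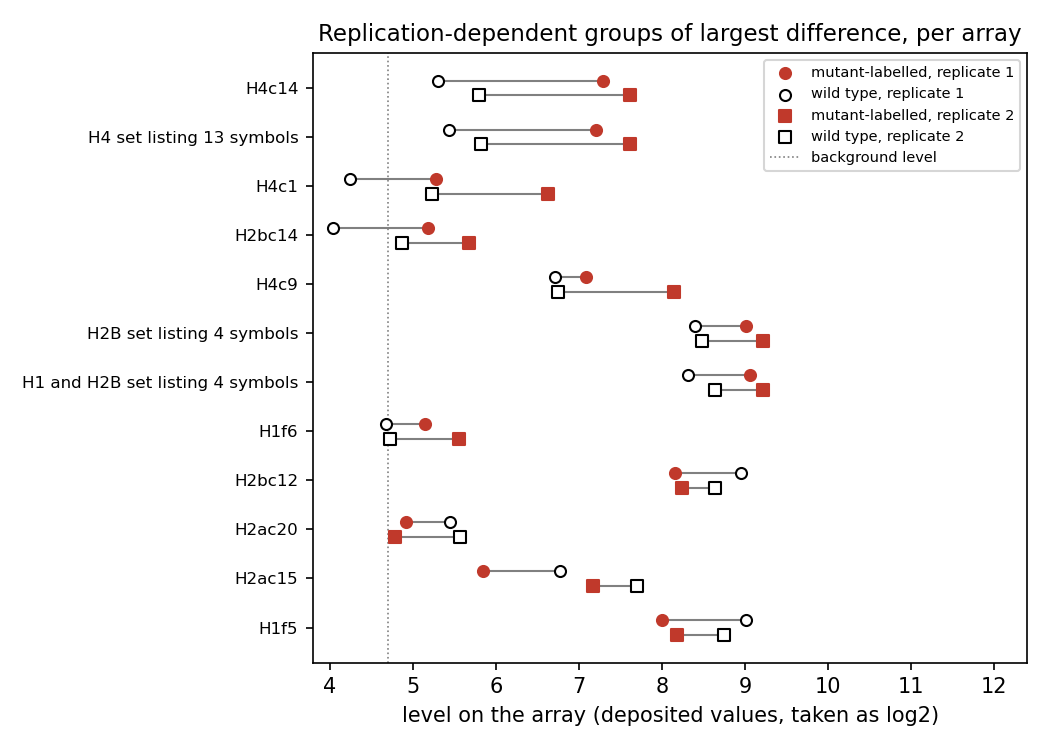
Level on each array of the 12 replication-dependent groups with the largest differences among those above the background level on at least 2 arrays, with filled symbols for mutant-labelled and open symbols for wild-type arrays, circles for replicate 1 and squares for replicate 2, and lines joining arrays of a replicate number. In 8 groups the mutant-labelled value is the higher one in both replicates and in 4 the lower one, and the dotted line marks the background level of 4.71.

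Among the variants, H2az1, which encodes the H2A.Z form that marks promoters, had the largest difference. It read 4.58 and 5.81 on the mutant-labelled arrays against 5.33 and 6.26 on the wild-type arrays, lower by 0.74 and 0.45 (SE 0.59, limma adjusted p = 1). The mutant-labelled value of replicate 1 was below the background level. The replicate numbers stood farther apart than the genotypes, and the genotypes overlapped. Its paralogue H2az2 read 10.25 and 10.59 against 10.27 and 10.59. H2ax, which encodes the H2A.X form phosphorylated at DNA breaks and whose mRNA is known in both 3′ end forms, read 10.36 and 10.47 against 10.46 and 10.58, lower by 0.10 and 0.11. H1f10 (9.32 and 9.50), the oocyte linker histone H1f8 (5.11 and 6.02) and the spermatid linker histone H1f7 (4.36 and 4.46) had the same values on both genotypes.

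The H3.3 rows, which also list predicted genes, were near 0 as well. The 5 that list H3f3a, H3f3b and H3f3c with Gm12657 and Gm6749 differed by -0.10 to 0.03, including a row at 12.28 and 12.58 against 12.32 and 12.58. The 2 rows for H3f3a and Gm12657 differed by 0.02 and 0.13. The row for H1f10 with the predicted gene Gm5577 differed by -0.02. Of these 8 mixed rows 0 were at least 1.5-fold apart within both replicates, whereas of the 64 replication-dependent rows 12 were higher (2.05% of all rows) and 1 was lower (0.885%). The 12 were 6 H4, 3 H2B, 2 H3 and 1 H2A row. They include 3 rows, 2 of H4 and 1 of H3, whose wild-type values were both below the background level. At any size 28 of the 64 were higher (17.2% of all rows) and 17 lower (15.6%), and the genotypes did not overlap in 18 that were higher (7.76%) and 11 that were lower (6.58%). These counts include 6 rows whose values are identical to those of another row, and with such rows counted once 27 of 61 were higher and 15 lower.

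The differences also varied with the level of the row. Of the 11 replication-dependent rows with a mean level of at least 11, 0 were higher within both replicates and 7 were lower (0 and 5 of 9 with rows of identical values counted once), with differences from -0.32 to 0.00. Of all 1915 rows at such levels 459 were higher and 765 lower within both replicates. Of the 13 replication-dependent rows between 8 and 11, 9 were higher and 4 lower, where 25.2% and 28.2% of all rows at those levels were. Of the 26 between the background level and 8, 14 were higher and 6 lower, where 17.9% and 12.9% of all such rows were. The rows with the largest differences in H4, H3 and H2B had mean levels between 7.66 and 7.74.

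**Figure D4:**
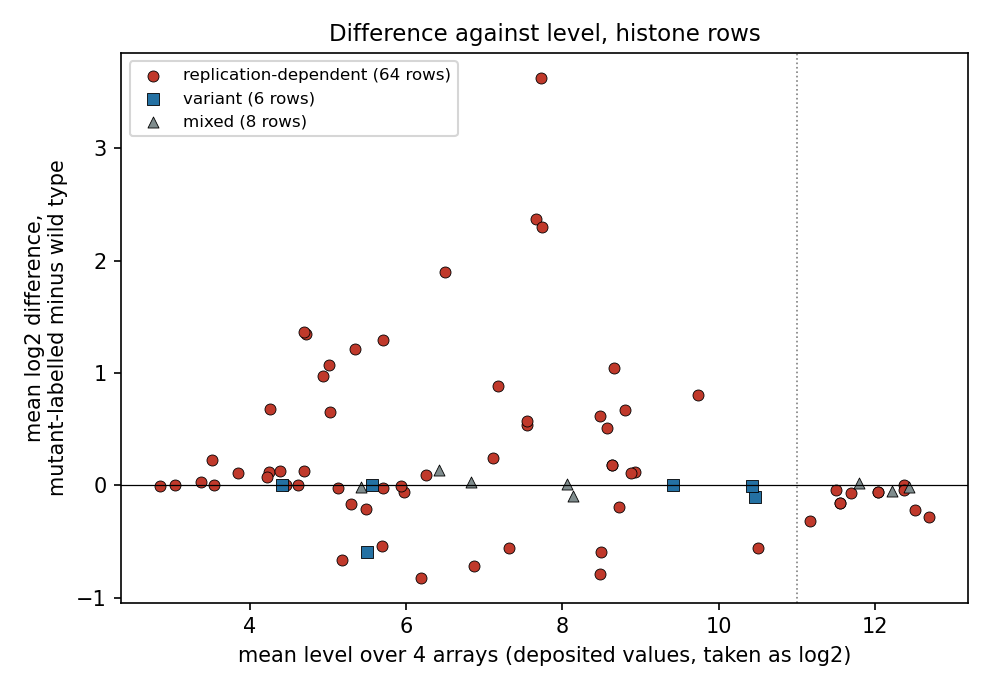
Mean log2 difference (mutant-labelled minus wild type) against mean level over 4 arrays for the 78 histone rows, by class, with a dotted line at a level of 11. The replication-dependent rows above 11 lie between -0.32 and 0.00, whereas those at lower levels reach from -0.82 to 3.62.

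Genes of histone mRNA processing and transcription stayed near 0. Of 21 measured genes 2 were higher and 7 lower within both replicates, against 19.9% and 18.7% of all rows above the background level, 0 passed the adjusted threshold, and the median was -0.004. Slbp, whose product binds the stem-loop of histone mRNA, read 9.32 and 9.24 against 9.32 and 9.25. Npat, which activates histone gene transcription at the G1 to S transition, was equal within both replicates. Eri1, an exonuclease that trims histone mRNA ends, differed by -0.33, and Ccne1, the cyclin that acts on Npat, by -0.30 (limma adjusted p = 1 for both).

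Histone chaperones and genes of the cell cycle were lower in more members. Of 26 chaperone genes 5 were higher and 13 lower within both replicates (median -0.06), against 19.9% and 18.7% of all rows above the background level. Chaf1b and Chaf1a, subunits of the CAF-1 complex that deposits H3.1 and H3.2 at replication forks, differed by -0.62 and -0.49, Asf1b by -0.54 and the helicase subunit Mcm2, which also binds H3 and H4, by -0.47. Of 28 G1 and S phase genes 1 was higher and 19 lower (19.9% and 18.7% of all such rows), with a median of -0.21, Mcm6 at -0.66 and Mcm3 at -0.63. Of 23 G2 and M phase genes 0 were higher and 21 lower (19.9% and 18.7% of all such rows), with a median of -0.32. In each of these lists 0 genes passed the adjusted threshold (limma), while 3, 3 and 2 genes of the G1 and S phase, G2 and M phase and chaperone lists were lower at an unadjusted p under 0.05 (1.4% of all rows). Histone modifiers had a median of 0.002 over 20 genes, with Kmt2a, a methyltransferase for H3 lysine 4, at 0.49.

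A list of noncoding RNAs, small ones and the long Malat1, shares with replication-dependent histone mRNA the lack of a poly(A) tail. Of 13 measured 8 were higher within both replicates (19.9% of all rows above the background level) and 0 lower, 0 passed the adjusted threshold (limma, with 4 higher at an unadjusted p under 0.05, where 2.54% of all rows were), with a median of 0.24 and a summed linear signal of 29598 to 31743 on the mutant-labelled arrays against 25852 to 27787 on the wild-type arrays. Without Malat1, which itself differed by 0.24, 7 of 12 were higher, the median was 0.23, and the sums were 19895 to 21923 against 17574 to 19511. Rny1, a Y RNA, read 7.67 and 8.48 against 5.38 and 5.72, and Vaultrc5, a vault RNA, 7.87 and 7.35 against 6.41 and 6.41. Rpph1, the RNA of ribonuclease P, differed by 0.75, whereas Rn7sk differed by 0.004. Of 78 small nucleolar RNA groups 47 were higher (17.4% of all groups) and 4 lower (15.9%) within both replicates (median 0.19). The part of these RNAs, of the cell cycle genes and of the macrophage markers in the histone differences was not tested. In total RNA from a whole culture, fewer cells of a type and less RNA per cell cannot be told apart.

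**Figure D5:**
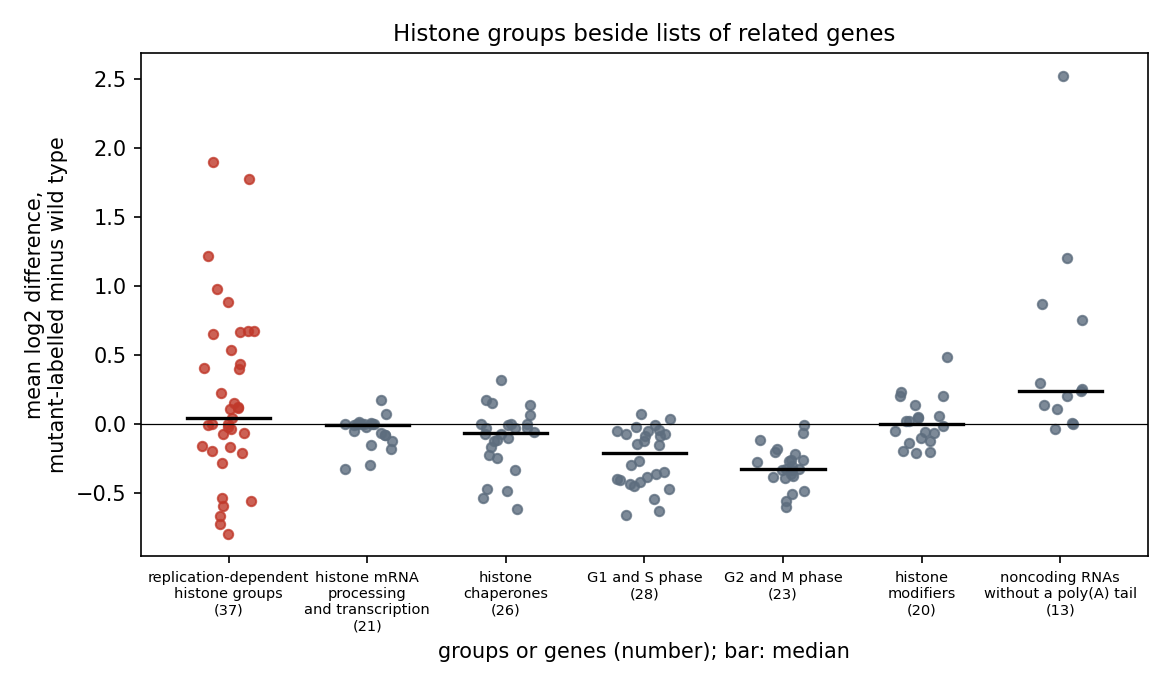
Mean log2 difference (mutant-labelled minus wild type) of the 37 replication-dependent histone groups and of the genes of 6 lists, with a bar at each median. The histone groups reach from -0.79 to 1.90 around a median of 0.04, the G1 and S phase genes have a median of -0.21, and the noncoding RNAs one of 0.24.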

How the data were processed

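The 4 osteoblast cultures were each read on an Affymetrix Mouse Gene ST array. The authors deposited 1 table of values taken as log2; per the submitters' processing notes Partek and RMA were used, and the sources used here give no version, centring or log base. Rows were named by the platform annotation (23521 with 1 symbol, 1814 with several, 16010 with none listed). H4bc24 and H4f16 were counted as replication-dependent from their RefSeq synonyms. Promoters matched 60 of 65 replication-dependent and 8 of 9 variant symbols.

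Differences were taken within each replicate number. Rows with 2 of 4 arrays above 4.71, the 90th percentile of 1405 olfactory and vomeronasal receptor rows, were tested with limma 3.58.1 (R 4.3.3; group only, two-sided, Benjamini-Hochberg over all 30240 rows, threshold 0.05). List genes were read by their brightest row with 1 symbol. Named were all variants, the 12 replication-dependent groups of largest difference above the background level, and up to 4 genes a list by smallest p, except Slbp, Npat and Rn7sk, named for their role, and genes, rows and groups singled out after their values were seen. Members, classes and lists were chosen with earlier results of these data known. Fits were tested on simulated data, on average returning the changes put in. Same-numbered arrays deviated together (r = 0.78 across rows), but with 2 pairs and no label of a shared litter or day, the replicate block stayed an alternative. The number of arrays limits the precision.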

Additional observations from a re-analysis of the deposited data

How the results depend on the processing

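The count of histone rows past the adjusted limma threshold was 0 with every filter, scaling and row choice tried, with the replicate block (0) and with each array left out (0 to 0, which says nothing about stability, since 1 residual degree of freedom is left and the lone array is assumed to vary like the other genotype), and 1 with an intensity trend; at an unadjusted p it was 18. That unadjusted count was 22 with the replicate block and 31 with that block and repeated quantile normalization. It was 6 over rows with 1 symbol. With identical-symbol rows merged (an alternative chosen after seeing the data) or with the brightest row per group it was 8. The share of all rows at an unadjusted p under 0.05 is not given for these settings, so these counts show no excess among histone rows. The 19 histone groups higher in both replicates became 29 with each row on its own, 9 over rows with 1 symbol, 5 at 1.5-fold and 3 at 2-fold. The 14 lower became 22 after quantile normalization again and 25 with arrays centred on their medians, because exact ties then take a sign; these scalings moved the median of all rows by -0.02 and -0.04. The median difference between the classes (0.05) was -0.018 with the brightest row per group and 0.31 as a difference of means. It was 0.0269 to 0.27 with an array left out, which breaks the pairing within replicates. The H2B set listing 4 symbols reversed to -0.28 with its brightest row, since its rows differ in sign. The planned display of proteins was not run. Of 18 named groups 15 kept their sign under either scaling and 0 reversed. The rest, H1f10, H1f8 and H1f7, had differences of exactly 0 and so no sign to keep.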

Other observations

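Further histone genes that the choice of symbols did not take were read by rows of their own. H4f16, an H4 gene outside the main clusters, read 8.34 and 8.58 on the mutant-labelled arrays against 7.41 and 7.99 on the wild-type arrays, higher by 0.93 and 0.59 (limma adjusted p = 1). Both mutant-labelled values lay above both wild-type values (7.76% of all rows). The same held for H4c14 and the H4 set listing 13 symbols, but that set lists H4f16 and H4c14 too, so these are not separate genes. Cenpa, the centromeric H3 variant, read 8.64 and 8.65 against 8.90 and 8.87, lower by 0.26 and 0.22. Macroh2a1, the more widely expressed macroH2A gene, differed by -0.08, Macroh2a2 by 0.29 and Macroh2a3 by -0.16. H2aw was higher by 0.29 and 0.55. H2aj, a replication-independent H2A gene, differed by 0.01, with equal values in replicate 2. None of these rows passed the adjusted threshold.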
